A study of Mus musculus with 11 samples.

Results

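The E2F factors are transcription factors that switch the genes of DNA replication and cell division on or off, and the pocket proteins are the inhibitors that hold them in check. The family was taken as 10 genes by symbol: the activators E2f1, E2f2 and E2f3, the canonical repressors E2f4 and E2f5, the atypical repressors E2f7 and E2f8, and the pocket proteins Rb1, Rbl1 and Rbl2. All 10 were found among the 24320 gene rows of the table.

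RNA was sequenced from 4 NRAS tumors, 4 PDGFB tumors and 3 pieces of normal mouse brain. Newborn mice had received plasmids in the right lateral ventricle with the Sleeping Beauty transposase, which moves plasmid genes into host DNA, firefly luciferase, the SV40 large T antigen and a driver. The driver was the constitutively active NRAS allele G12V in NRAS tumors, a form of a small GTPase upstream of the MAPK cascade, and PDGFB, a growth factor, in PDGFB tumors. Tumors were taken at the middle of their development and cut out by their GFP signal, while normal brain was labelled as a wild-type control. Every tumor thus also carried large T, a viral protein that binds pocket proteins and p53, and there was no group with large T alone or with a driver alone. The series text names the strain FVB, whereas the sample labels give B6 for all libraries except normal brain 3, which is FVB. Which cells took up the plasmids, and the promoter of each transgene, is not stated. Titles match normal brain 1 to NRAS tumor 2 and normal brain 3 to PDGFB tumor 1, and since no label gives each replicate its own animal, the p-values speak only of the spread among these libraries, which may be technical.

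In resting cells Rb1, the retinoblastoma protein, covers the activating domain of the activator E2Fs, while Rbl1 (p107) and Rbl2 (p130) sit mainly on E2f4 and E2f5 and recruit repressors to cell cycle genes. Cyclin-dependent kinases phosphorylate the pocket proteins late in G1 and release the E2Fs, and large T releases them by binding the same pocket. E2f7 and E2f8 bind DNA without a dimerization partner or a pocket protein and turn the same genes down again in S and G2, and in mammalian cells E2f1, E2f2, E2f7, E2f8 and Rbl1 are themselves known as E2F target genes.

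Values are FPKM, fragments scaled to transcript length and to the mapped fragments of the library. The number of genes at 1 FPKM or more was 12705 to 13923 per library, and the upper quartile was 13.9 to 14.9 FPKM. Depth in reads is unknown, and relative depth, read from the spacing of the lowest FPKM values, was 0.93 to 1 for NRAS tumors, 0.853 to 0.889 for PDGFB tumors and 0.776 to 0.821 for normal brain. Nras was at 154, 139, 119.7 and 82.0 FPKM in NRAS tumors 1 to 4, at 31.7 to 42.9 FPKM in PDGFB tumors and at 13.01 to 17.5 FPKM in normal brain. Pdgfb was at 5.15 to 7.80 FPKM in NRAS tumors, 745 to 1564 FPKM in PDGFB tumors and 6.12 to 7.19 FPKM in normal brain. Both drivers were thus highest in the tumors labelled with them. The titles carry 2 series of numbers, 1834 to 1838 for the normal brains and NRAS tumors 1 and 2, and 2038 to 2046 for the other tumors. What the numbers stand for is not stated.

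Promoter sequence is shown for the members that bracket the expression results, with the letters that E2F proteins and the MuvB complex are known to read put in capitals. RefSeq promoter windows of 300 bases, 250 before and 50 after a transcript start on the GRCm38.p6 build, were on hand for 7 of the 10 members, and for 6 of them a window lay at the outer end of the gene. Both strands were searched for the E2F octamers TTTCCCGC, TTTGGCGC, TTTCGCGC and TTTGCCGC, for the E2F heptamers that lack their first T and so lie within every octamer, and for the cell cycle homology region TTTGAA, which MuvB complexes bind. The 250 bases before the start are printed 5′ to 3′ on the strand of the gene, all capitals being matches on either strand. Rbl1 is at chr2:157204535-157204784 (minus strand), E2f3 at chr13:29986064-29986313 (minus), E2f7 at chr10:110745189-110745438 (plus), E2f8 at chr7:48881597-48881846 (minus) and Rbl2 at chr8:91069807-91070056 (plus).
Rbl1: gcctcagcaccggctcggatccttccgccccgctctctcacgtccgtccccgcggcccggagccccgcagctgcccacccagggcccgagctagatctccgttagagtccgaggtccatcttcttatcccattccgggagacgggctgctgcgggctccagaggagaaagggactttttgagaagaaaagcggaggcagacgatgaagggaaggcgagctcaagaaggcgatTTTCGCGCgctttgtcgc
E2f3: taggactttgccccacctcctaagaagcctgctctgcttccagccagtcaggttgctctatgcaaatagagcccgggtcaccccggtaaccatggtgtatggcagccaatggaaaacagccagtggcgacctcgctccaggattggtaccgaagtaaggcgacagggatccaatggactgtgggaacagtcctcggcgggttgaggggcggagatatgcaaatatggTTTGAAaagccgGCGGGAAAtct
E2f7: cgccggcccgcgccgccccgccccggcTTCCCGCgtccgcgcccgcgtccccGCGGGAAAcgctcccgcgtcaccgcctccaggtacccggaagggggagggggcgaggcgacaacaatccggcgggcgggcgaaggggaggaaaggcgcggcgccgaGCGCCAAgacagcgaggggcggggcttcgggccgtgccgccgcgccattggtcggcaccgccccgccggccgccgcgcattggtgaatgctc
E2f8: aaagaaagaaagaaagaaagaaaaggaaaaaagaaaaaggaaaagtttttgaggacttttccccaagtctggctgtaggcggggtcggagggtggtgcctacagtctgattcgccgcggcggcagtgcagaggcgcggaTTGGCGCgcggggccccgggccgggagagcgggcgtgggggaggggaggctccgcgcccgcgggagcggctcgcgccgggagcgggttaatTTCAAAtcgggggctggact
Rbl2: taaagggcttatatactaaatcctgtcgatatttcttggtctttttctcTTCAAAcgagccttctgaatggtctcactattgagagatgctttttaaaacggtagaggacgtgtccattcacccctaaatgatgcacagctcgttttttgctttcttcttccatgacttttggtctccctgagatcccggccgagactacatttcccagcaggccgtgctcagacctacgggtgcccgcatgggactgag

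The Rbl1 window held 1 octamer, TTTCGCGC, whose first base lay at -18 from the start. The E2f3 window held the octamer TTTCCCGC on the opposite strand at -11 and TTTGAA at -23, and the further heptamer TTGGCGC after the start. The E2f7 window held the octamer TTTCCCGC on the opposite strand at -198 and further heptamers at -223 and -92. The E2f8 window held no octamer, the heptamer TTGGCGC at -111 and TTTGAA on the opposite strand at -20. The E2f2 window, which is not printed, held the octamer TTTGGCGC after the start. The Rbl2 window held no E2F letters and only TTTGAA on the opposite strand at -201. An octamer was thus in 4 of these 6 windows (E2f2, E2f3, E2f7 and Rbl1), against 2.26% of all 32851 promoter windows and 3.61% of the 14062 windows of genes tested. These shares are not limited to windows at the outer end of a gene. The E2f1 window and a further window each of E2f2 and E2f3 lay inside the gene. They held no octamer and no heptamer. A heptamer was in 9.57% of all windows and 15.9% of those of genes tested, and TTTGAA in 17.9% and 11.6%. A match describes letters in the window and not a bound site, and a missing match says only that these letters are not in it.

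**Figure D1:**
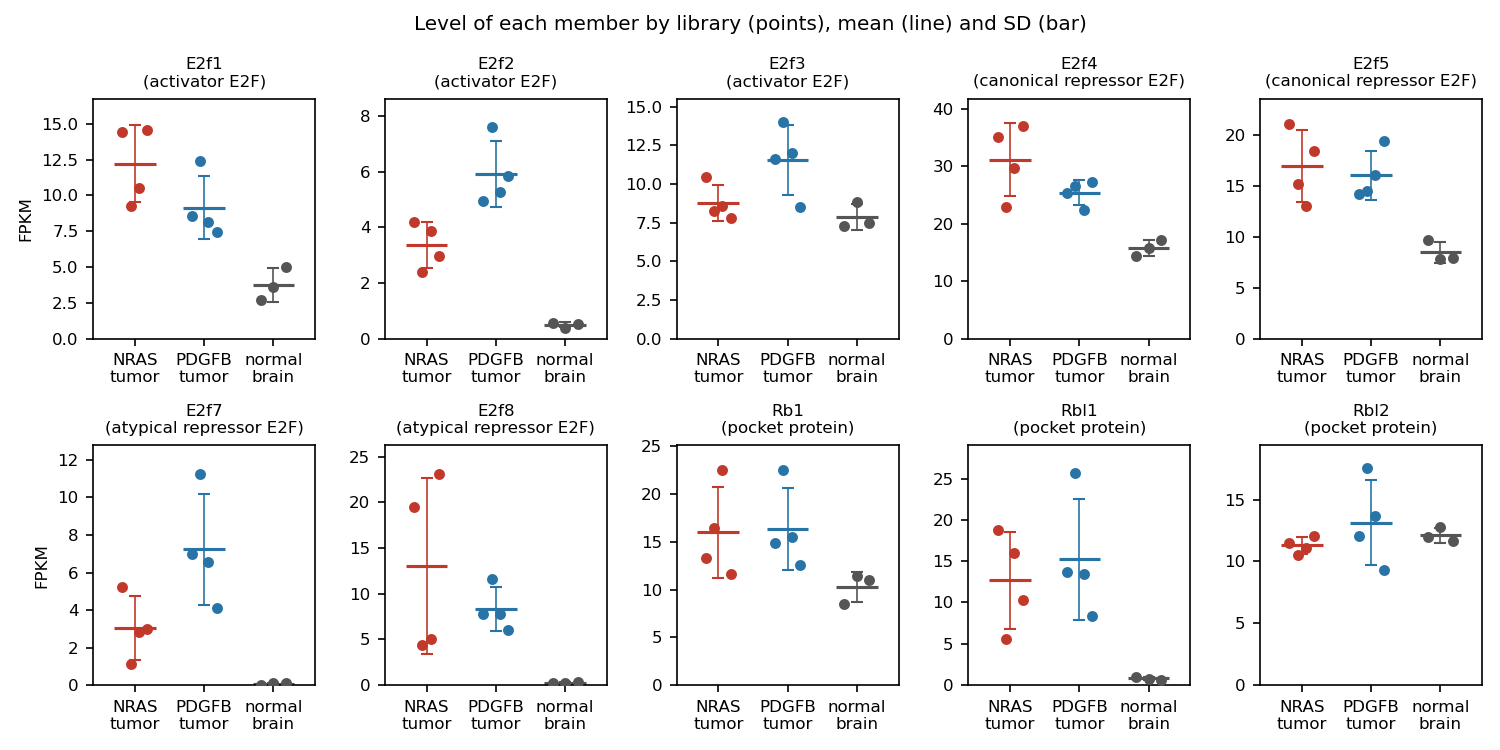
FPKM (y axis, from 0) of each of the 10 genes in 4 NRAS tumors (red), 4 PDGFB tumors (blue) and 3 normal brains (grey); points are libraries, horizontal lines means and bars SD. E2f2, E2f7, E2f8 and Rbl1 lie below 1 FPKM in every normal brain and above it in all 8 tumors, whereas the 3 groups overlap for Rbl2.

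In NRAS tumors 7 of the 10 members rose against normal brain: E2f1, E2f2, E2f4, E2f5, E2f7, E2f8 and Rbl1. E2f3, Rb1 and Rbl2 were not called. The test was limma on log2(FPKM + 1) with Benjamini-Hochberg adjustment over 14491 genes and a threshold of 0.05, and it called 32% of all genes tested higher and 30.3% lower (62.3% in all). No member was lower at an unadjusted p under 0.05 either. The median log2 fold change was 1.199 over the members and 0.01 over all genes tested, and 8 of the 10 members had all NRAS tumors above all normal brains, against 33.2% of all genes tested. Within titles 1834 to 1838, which hold NRAS tumors 1 and 2 and all normal brains, 6 members passed the filter and 3 of them were called higher. That fit called 2731 of the 13348 genes it tested higher.

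In PDGFB tumors 9 of the 10 members rose against the same 3 normal brains, all except Rbl2, where 29.3% of all genes tested were called higher and 29.2% lower (58.5% in all). The median log2 fold change was 0.97 over the members and 0.04 over all genes tested. Again 8 members had all tumors above all normal brains, against 33.8% of all genes tested; no member was lower at an unadjusted p under 0.05. The comparisons share their normal brains, so they are not independent. No number series holds both PDGFB tumors and normal brain. With the series as a covariate 5 members were called, E2f2, E2f5, E2f7, E2f8 and Rbl1, where 2463 of 14491 genes tested were called higher. Of these members only E2f5 reached 1 FPKM in all 11 libraries. Between the tumor models 2 members, E2f2 and E2f7, were lower in NRAS tumors than in PDGFB tumors, where 12.2% of all genes tested were called lower and 14.3% higher (26.6% in all). This count is near the background share. Only E2f2 of the 10 had all NRAS tumors below all PDGFB tumors, against 11.6% of all genes tested.

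E2f2, E2f7, E2f8 and Rbl1 reached the 1 FPKM that the test required in 8 of 11 libraries, the tumors, and in no normal brain. They entered the test only through the tumors and so had to differ. The other 6 members reached 1 FPKM in all 11 libraries, so every member was tested. Of these 6, 3 rose in NRAS tumors and 5 in PDGFB tumors, against normal brain. The libraries are from bulk tissue, in which fewer cells of a type and less RNA per cell cannot be told apart. Proliferation markers moved with the members: all 10 of the markers rose in both comparisons with normal brain, and their summed level was 126 to 486 FPKM in NRAS tumors, 473 to 728 FPKM in PDGFB tumors and 4.44 to 7.18 FPKM in normal brain. Aurkb alone of them was listed at 0, in normal brain 1. Mki67, Top2a, Cdk1, Ccnb1, Aurkb, Bub1 and Kif11 reached 1 FPKM in no normal brain, so these markers entered the test only through the tumors. The sums of tumors and normal brain did not overlap. Within titles 1834 to 1838, where fewer tumors could carry a gene past the filter, 3 of the 10 markers were tested and all 3 were called higher.

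Cell type markers also moved with the members in both comparisons with normal brain. Neuron markers were called lower for 6 of 7 in NRAS tumors and 7 of 7 in PDGFB tumors, with sums of 235 to 1201 FPKM in NRAS tumors, 115 to 677 FPKM in PDGFB tumors and 2281 to 2787 FPKM in normal brain, and no neuron marker was listed at 0. With the number series as a covariate the neuron count in PDGFB tumors was 2 of 7. Oligodendrocyte markers were lower for 6 of 6 in NRAS tumors and 5 of 6 in PDGFB tumors, with sums of 251 to 1504 FPKM in NRAS tumors, 186 to 2135 FPKM in PDGFB tumors and 2276 to 7013 FPKM in normal brain. These calls rested on few libraries: in NRAS tumors limma called none without NRAS tumor 1 or 3 or normal brain 1 or 3, where 1 to 5 had an unadjusted p under 0.05. In PDGFB tumors it called 2 without PDGFB tumor 2 or 3, 1 without normal brain 1 and none without normal brain 3, where 4 had an unadjusted p under 0.05. With the number series as a covariate no oligodendrocyte marker was called in either comparison, nor had one an unadjusted p under 0.05. Markers of ependyma and choroid plexus were lower for 4 of 5 tested in each tumor model, with sums of 8.05 to 45.1 FPKM in NRAS tumors, 3.23 to 811 FPKM in PDGFB tumors and 832 to 2034 FPKM in normal brain. The PDGFB count was 2 without normal brain 2 or 3 and with the covariate.

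Other markers were called higher. Oligodendrocyte progenitor markers were higher for 3 of 4 in NRAS tumors and 4 of 4 in PDGFB tumors, against normal brain. Microglia and macrophage markers were higher for 5 of 6 in NRAS tumors, and T and NK cell markers for 6 of 6 in NRAS tumors. The T and NK cell markers Cd3e, Cd3g, Cd2, Nkg7 and Gzmb reached 1 FPKM only in NRAS tumors. They entered the test only through the group in which they were called higher. The T and NK cell count was 1 to 6 over the other settings. In PDGFB tumors 2 of 6 microglia and macrophage markers were higher, a count that was 1 without PDGFB tumor 1 and 0 at an adjusted p without PDGFB tumor 4 or any 1 of the normal brains (limma; 1 to 2 at an unadjusted p under 0.05). Endothelial markers were higher for 3 of 4 in NRAS tumors, and with the covariate none was called by limma and 2 had an unadjusted p under 0.05. In PDGFB tumors 2 endothelial markers were higher and 1 was lower. Astrocyte markers went both ways against normal brain. Of 5, 1 was higher and 1 lower in NRAS tumors, and 1 was higher and 2 lower in PDGFB tumors. The part of cell division and of cell type composition in the member results was not tested.

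**Figure D2:**
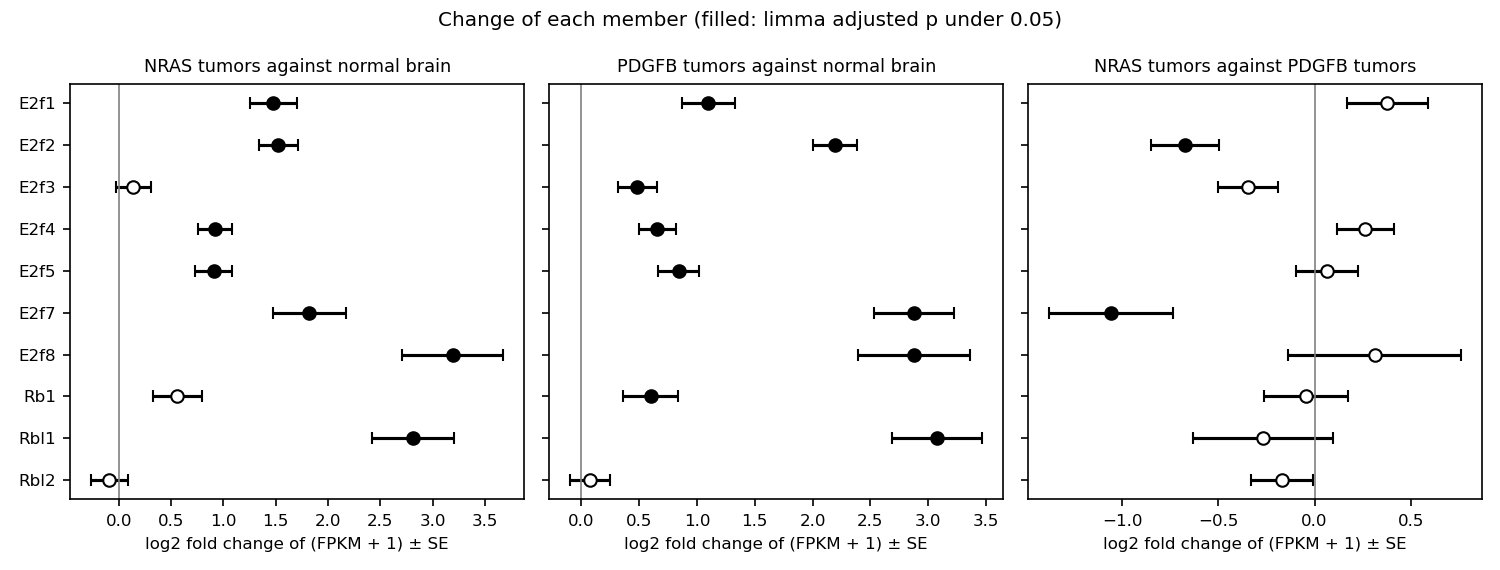
Log2 fold change of (FPKM + 1) with its standard error (x axis) for each member (y axis) in NRAS tumors against normal brain, PDGFB tumors against normal brain and NRAS tumors against PDGFB tumors; filled points have a limma adjusted p under 0.05. In both comparisons with normal brain the points of E2f7, E2f8 and Rbl1 lie at 1.82 or above and that of Rbl2 lies near 0, and between the models only E2f2 and E2f7 are filled.

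Among the activators, E2f1, which drives entry into S phase and can also trigger cell death, was at 14.4, 9.27, 10.5 and 14.5 FPKM in NRAS tumors, 8.57, 12.4, 8.17 and 7.44 FPKM in PDGFB tumors and 2.68, 3.58 and 5.01 FPKM in normal brain. Every tumor was above every normal brain, while the tumor models overlapped. E2f1 averaged 12.2 ± 2.69 FPKM in NRAS tumors (SD, n = 4) and 3.75 ± 1.17 FPKM in normal brain (SD, n = 3), a log2 fold change of 1.48 ± 0.23 (SE; adjusted p = 0.000378). It averaged 9.15 ± 2.23 FPKM in PDGFB tumors (SD, n = 4), a log2 fold change against normal brain of 1.10 ± 0.23 (adjusted p = 0.00187), a call lost with the number series as a covariate (0.0696). The E2f1 difference of 0.38 ± 0.21 in NRAS tumors against PDGFB tumors was not called (adjusted p = 0.214).

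E2f2, the activator best known from blood and immune cells, was at 4.19, 2.38, 3.88 and 2.96 FPKM in NRAS tumors, 4.93, 7.62, 5.27 and 5.84 FPKM in PDGFB tumors and 0.557, 0.394 and 0.530 FPKM in normal brain. The groups stood in 3 steps without overlap, with PDGFB tumors on top. Its log2 fold change was 1.52 ± 0.19 in NRAS tumors against normal brain (adjusted p = 0.000119) and 2.197 ± 0.19 in PDGFB tumors against normal brain (adjusted p = 1.13e-05). Against PDGFB tumors E2f2 was lower in NRAS tumors by -0.67 ± 0.18 on the log2 scale (adjusted p = 0.0168), with means of 3.35 ± 0.831 FPKM in NRAS tumors and 5.91 ± 1.196 FPKM in PDGFB tumors (SD, n = 4 each).

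Within titles 2038 to 2046, NRAS tumors 3 and 4 against all PDGFB tumors gave E2f2 a log2 fold change of -0.64 that was not called (adjusted p = 0.0839), and with the number series as a covariate the adjusted p was 0.0571.

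E2f3, the activator that is broadly expressed in developing tissues, was at 10.5, 8.26, 8.60 and 7.82 FPKM in NRAS tumors, 11.6, 14.01, 11.996 and 8.49 FPKM in PDGFB tumors and 7.28, 8.84 and 7.50 FPKM in normal brain. It was the activator with the highest mean level in normal brain and in PDGFB tumors, and its groups overlapped throughout. In NRAS tumors the log2 fold change of 0.14 ± 0.17 against normal brain was not called (adjusted p = 0.4932). In PDGFB tumors E2f3 was called higher by 0.48 ± 0.17 (adjusted p = 0.0290), although PDGFB tumor 4 lay below normal brain 2. That call was lost without PDGFB tumor 1, 2 or 3 or normal brain 1 or 3 (adjusted p 0.0586 to 0.0961) and when FPKM were rescaled without small RNA genes (0.172). With the number series as a covariate the call was lost as well. The row holds 1 value for the gene and does not separate the E2f3 isoforms that start at different promoters. The difference of -0.34 ± 0.16 in NRAS tumors against PDGFB tumors was not called (adjusted p = 0.129), and without PDGFB tumor 4 it was -0.47 and called (0.0284).

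The share of each activator shifted with these values. E2f2 made up 11.7 to 16.8% of the summed activator FPKM in NRAS tumors, 19.6 to 26.8% in PDGFB tumors and 3.07 to 5.30% in normal brain, 3 ranges that did not overlap. The E2f1 to E2f2 ratio of FPKM was 2.72 to 4.91 in NRAS tumors, 1.27 to 1.74 in PDGFB tumors and 4.81 to 9.44 in normal brain, so that the tumor models were apart and NRAS tumor 4 lay just above the lowest normal value. E2f3 made up 7.32 to 12.99% of the summed FPKM of all 7 E2F members in NRAS tumors, 10.8 to 15.3% in PDGFB tumors and 19.4 to 24.1% in normal brain. Its share was thus lower in every tumor than in every normal brain, without a lower level.

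Of the canonical repressors, E2f4, which works with Rbl1 and Rbl2 at repressed cell cycle genes, was at 35.1, 22.9, 29.6 and 37.0 FPKM in NRAS tumors, 25.4, 26.6, 22.4 and 27.3 FPKM in PDGFB tumors and 14.4, 15.7 and 17.2 FPKM in normal brain. It had the highest mean level of the 10 members in all 3 groups, and every tumor was above every normal brain. E2f4 averaged 31.2 ± 6.34 FPKM in NRAS tumors (SD, n = 4) and 15.8 ± 1.43 FPKM in normal brain (SD, n = 3), with a log2 fold change of 0.92 ± 0.16 (adjusted p = 0.000727). The change was 0.66 ± 0.16 in PDGFB tumors against normal brain (adjusted p = 0.00472), and with the number series as a covariate it was 0.44 and not called (adjusted p = 0.212). The E2f4 difference of 0.26 ± 0.15 in NRAS tumors against PDGFB tumors was not called (adjusted p = 0.216), whereas without NRAS tumor 2 it was 0.40 and called (0.0300).

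E2f5, the other repressor that pairs with the p130 and p107 pocket proteins, was at 21.2, 15.2, 13.1 and 18.5 FPKM in NRAS tumors, 14.3, 14.5, 16.1 and 19.5 FPKM in PDGFB tumors and 9.71, 7.87 and 7.93 FPKM in normal brain. Every tumor was above every normal brain and the tumor models overlapped. Against normal brain E2f5 rose by 0.91 ± 0.17 on the log2 scale for NRAS tumors (adjusted p = 0.00127), and for PDGFB tumors by 0.84 ± 0.17 (adjusted p = 0.00185). Between NRAS tumors and PDGFB tumors the difference was 0.06 ± 0.16 (adjusted p = 0.805). Exons of E2f5 overlap those of 1810022K09Rik on the opposite strand, and no source used here says that counting used the strand, so reads of both cannot be told apart.

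The atypical repressors had the largest ratios to normal brain. E2f7 was at 5.24, 1.12, 2.84 and 2.99 FPKM in NRAS tumors, 7.01, 11.3, 6.55 and 4.13 FPKM in PDGFB tumors and 0.0271, 0.0924 and 0.0831 FPKM in normal brain. NRAS tumor 1 lay within the PDGFB range and the other 3 NRAS tumors lay below it, while all normal brains lay far below every tumor. E2f7 averaged 3.05 ± 1.69 FPKM in NRAS tumors and 7.24 ± 2.97 FPKM in PDGFB tumors (SD, n = 4 each). The log2 fold change of (FPKM + 1), which understates the change of such low genes, was 1.82 ± 0.35 in NRAS tumors against normal brain (adjusted p = 0.00120). In PDGFB tumors it was 2.88 ± 0.35 (adjusted p = 8.36e-05).

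E2f7 was lower in NRAS tumors than in PDGFB tumors by -1.06 ± 0.32 on the log2 scale (adjusted p = 0.0323). That call was lost in 11 of 18 other settings, among them the fits without NRAS tumor 2, 3 or 4 or without PDGFB tumor 1, 2 or 3 (adjusted p 0.0578 to 0.0845). The log2 fold change ranged from -1.32 to -0.78 over the settings. Within titles 2038 to 2046 it was -1.01 (adjusted p = 0.0717). Exons of E2f7 overlap those of 1700020G17Rik on the opposite strand.

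E2f8, which acts together with E2f7, was at 19.5, 4.44, 5.08 and 23.2 FPKM in NRAS tumors, 7.75, 11.7, 7.80 and 6.06 FPKM in PDGFB tumors and 0.184, 0.219 and 0.313 FPKM in normal brain. NRAS tumors fell into a high pair (1 and 4) above all PDGFB tumors and a low pair (2 and 3) below all of them. E2f8 averaged 13.05 ± 9.69 FPKM in NRAS tumors (SD, n = 4), 8.32 ± 2.37 FPKM in PDGFB tumors (SD, n = 4) and 0.239 ± 0.0669 FPKM in normal brain (SD, n = 3). Relative to normal brain, E2f8 rose by 3.19 ± 0.49 on the log2 scale for NRAS tumors (adjusted p = 0.000349), and for PDGFB tumors by 2.88 ± 0.49 (adjusted p = 0.000574). Its difference in NRAS tumors against PDGFB tumors was 0.31 ± 0.45 (adjusted p = 0.650), and without NRAS tumor 4 it was -0.052.

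The pair of atypical genes differed in balance. The E2f8 to E2f7 ratio of FPKM was 3.72, 3.96, 1.79 and 7.75 in NRAS tumors and 1.11, 1.03, 1.19 and 1.47 in PDGFB tumors, against 6.78, 2.37 and 3.77 in normal brain, where both genes were near 0. All NRAS tumors thus lay above all PDGFB tumors in this ratio. Together E2f7 and E2f8 made up 8.74 to 24.4% of the summed E2F FPKM in NRAS tumors, 12.9 to 23.4% in PDGFB tumors and 0.606 to 1.03% in normal brain.

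**Figure D3:**
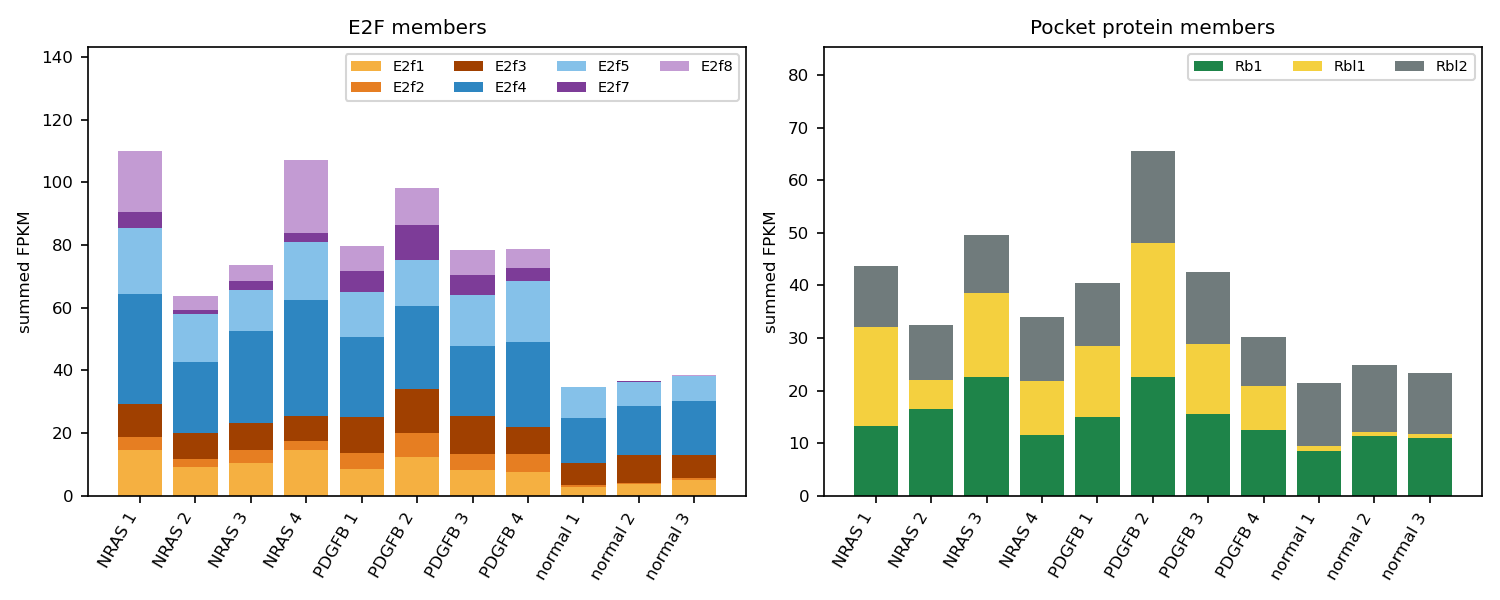
Summed FPKM (y axis, from 0) of the 7 E2F members (left) and the 3 pocket proteins (right) in each library (x axis), stacked by gene. E2f7, E2f8 and Rbl1 are broad bands in all 8 tumors and close to invisible in the 3 normal brains; the E2F total is 63.6 to 110.1 FPKM in NRAS tumors, 78.3 to 98.04 FPKM in PDGFB tumors and 34.8 to 38.6 FPKM in normal brain.

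Of the pocket proteins, Rb1 was at 13.3, 16.4, 22.5 and 11.6 FPKM in NRAS tumors, 14.9, 22.5, 15.5 and 12.6 FPKM in PDGFB tumors and 8.502, 11.4 and 10.98 FPKM in normal brain. Every tumor was above every normal brain, but NRAS tumor 4 exceeded normal brain 2 only slightly. The log2 fold change was 0.56 ± 0.24 in NRAS tumors against normal brain and was not called (adjusted p = 0.0587), and it passed when the replicate number was a block (0.0141) and without NRAS tumor 4 (0.0290). In PDGFB tumors it was 0.60 ± 0.24 and just passed (adjusted p = 0.0467), and the call was lost in 11 of 15 other settings, among them the fits without PDGFB tumor 1, 2 or 3 or without any 1 of the normal brains (adjusted p 0.0646 to 0.164). In NRAS tumors against PDGFB tumors it was -0.04 ± 0.22 (adjusted p = 0.906). Exons of Rb1 overlap those of Lpar6, a lysophosphatidic acid receptor gene that lies inside Rb1, and of Rcbtb2, both on the opposite strand. Lpar6 was at 10.5 to 16.2 FPKM in NRAS tumors, 6.81 to 9.57 FPKM in PDGFB tumors and 2.41 to 3.46 FPKM in normal brain, and its part in the Rb1 values was not tested.

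Rbl1 (p107), the pocket protein whose level is known to follow the cell cycle, was at 18.8, 5.59, 16.0 and 10.2 FPKM in NRAS tumors, 13.6, 25.6, 13.4 and 8.32 FPKM in PDGFB tumors and 0.943, 0.788 and 0.656 FPKM in normal brain. All tumors were above all normal brains by a wide gap, and the tumor models overlapped. Rbl1 averaged 12.7 ± 5.91 FPKM in NRAS tumors (SD, n = 4), 15.2 ± 7.34 FPKM in PDGFB tumors (SD, n = 4) and 0.796 ± 0.143 FPKM in normal brain (SD, n = 3). The means were 15.9 times normal in NRAS tumors and 19.2 times normal in PDGFB tumors. On the log2 scale Rbl1 rose by 2.81 ± 0.39 for NRAS tumors (adjusted p = 0.000221), and for PDGFB tumors by 3.08 ± 0.39 (adjusted p = 0.000116). Between the models the Rbl1 difference was -0.27 ± 0.36 (adjusted p = 0.632). That direction turned without NRAS tumor 2 (0.045) and without PDGFB tumor 2 (0.0063).

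Rbl2 (p130), the pocket protein of resting cells, was at 11.5, 10.5, 11.1 and 12.1 FPKM in NRAS tumors, 12.02, 17.5, 13.7 and 9.29 FPKM in PDGFB tumors and 11.9, 12.8 and 11.6 FPKM in normal brain. Both tumor models overlapped with normal brain, and PDGFB tumors held both the highest and the lowest value. Its log2 fold change against normal brain was -0.09 ± 0.17 for NRAS tumors (adjusted p = 0.661), and for PDGFB tumors 0.08 ± 0.17 (adjusted p = 0.729). Between the models it was -0.17 ± 0.16 (adjusted p = 0.479). Exons of Rbl2 overlap those of Aktip on the opposite strand.

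The make-up of the pocket proteins differed between tumors and normal brain. Rbl1 made up 17.2 to 43.1% of the summed pocket protein FPKM in NRAS tumors, 27.6 to 38.9998% in PDGFB tumors and 2.82 to 4.41% in normal brain. Rbl2 made up 22.3 to 35.6% in NRAS tumors, 26.7 to 32.1% in PDGFB tumors and 49.96 to 55.8% in normal brain. Rbl2 was the pocket protein with the highest level in all normal brains, and in tumors it held that place only in NRAS tumor 4. The ratio of summed E2F to summed pocket protein FPKM was 1.48 to 3.15 in NRAS tumors, 1.49 to 2.61 in PDGFB tumors and 1.47 to 1.66 in normal brain, so the groups overlapped and both sums were higher in all tumors than in all normal brains.

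In normal brain the order of mean FPKM was E2f4, Rbl2, Rb1, E2f5, E2f3, E2f1, Rbl1, E2f2, E2f8 and E2f7, and neighbours overlapped only between Rb1 and E2f5 and between E2f5 and E2f3. In NRAS tumors the order was E2f4, E2f5, Rb1, E2f8, Rbl1, E2f1, Rbl2, E2f3, E2f2 and E2f7, where only E2f4 and E2f5, Rbl2 and E2f3, and E2f3 and E2f2 were apart. In PDGFB tumors it was E2f4, Rb1, E2f5, Rbl1, Rbl2, E2f3, E2f1, E2f8, E2f7 and E2f2, and all neighbours overlapped. As a ratio of highest to lowest mean, the levels spanned a wider range in normal brain than in either tumor model. Means ran from 0.07 to 15.8 FPKM in normal brain, 3.05 to 31.2 in NRAS tumors and 5.91 to 25.4 in PDGFB tumors. The low end in normal brain rests on values under 1 FPKM.

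Within the tumor groups the members varied with individual tumors. PDGFB tumor 2 was the highest PDGFB tumor for 8 members, all except E2f4 and E2f5, and also for the summed proliferation markers (728 FPKM, against 473 to 496 FPKM in the other PDGFB tumors). NRAS tumor 2 was the lowest NRAS tumor for E2f1, E2f2, E2f4, E2f7, E2f8, Rbl1 and Rbl2 and for the summed proliferation markers (126 FPKM, against 254 to 486 FPKM in the other NRAS tumors). The same tumor had the highest neuron marker sum of all tumors (1201 FPKM), while PDGFB tumor 2 had the lowest (115 FPKM). Rb1, E2f3 and E2f5 did not have NRAS tumor 2 as the lowest NRAS tumor. Rb1 was highest in NRAS tumor 3 and lowest in NRAS tumor 4. E2f3 was also lowest in NRAS tumor 4, and E2f5 in NRAS tumor 3.

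**Figure D4:**
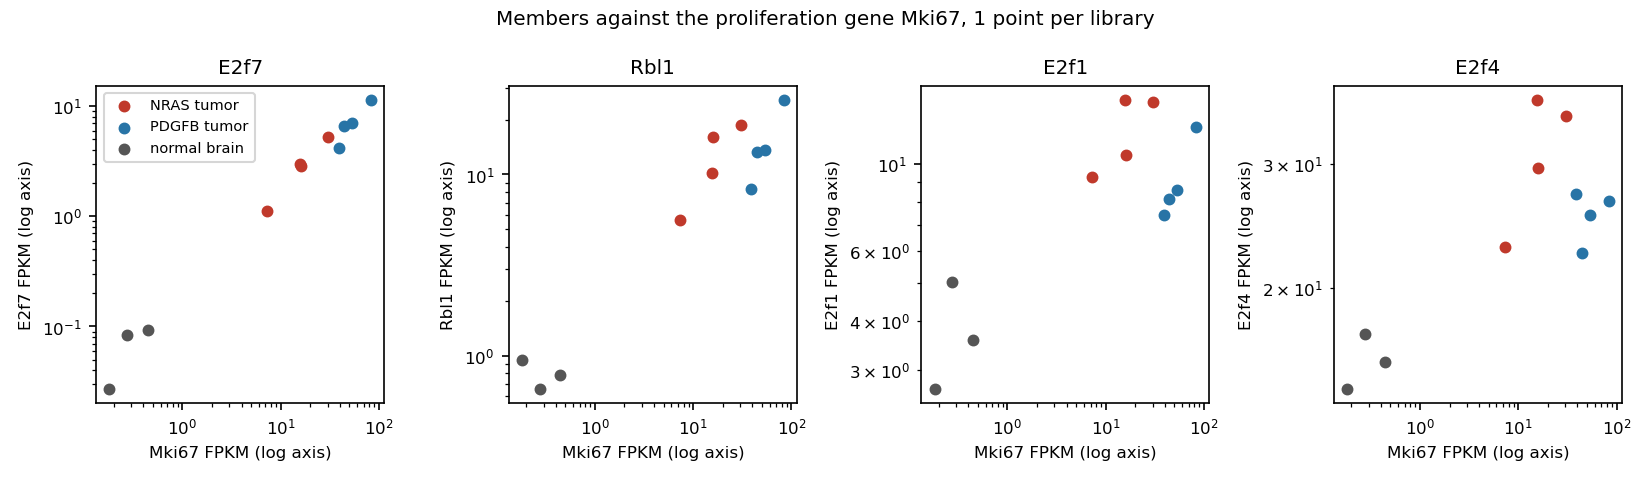
FPKM of E2f7, Rbl1, E2f1 and E2f4 (y axes, log scale) against FPKM of the proliferation gene Mki67 (x axes, log scale), 1 point for each of 4 NRAS tumors (red), 4 PDGFB tumors (blue) and 3 normal brains (grey). E2f7 lies along 1 band in all libraries, whereas E2f1 is as high in NRAS tumors as in PDGFB tumors at lower Mki67.

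Set beside Mki67, which encodes the proliferation antigen Ki-67, the members differed from each other. Mki67 was at 30.4, 7.27, 16.0 and 15.6 FPKM in NRAS tumors, 53.8, 83.3, 44.3 and 39.1 FPKM in PDGFB tumors and 0.181, 0.446 and 0.274 FPKM in normal brain. The E2f7 to Mki67 ratio was 0.154 to 0.191 in NRAS tumors, 0.105 to 0.148 in PDGFB tumors and 0.149 to 0.303 in normal brain, a narrow span beside that of either gene alone. Within that span every NRAS tumor lay above every PDGFB tumor, although the mean E2f7 level was lower in NRAS tumors. Normal brain overlapped with NRAS tumors. The E2f1 to Mki67 ratio was 0.474 to 1.27 in NRAS tumors, 0.149 to 0.190 in PDGFB tumors and 8.03 to 18.2 in normal brain, with no overlap of the groups. These ratios are descriptions and were not tested.

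By the pattern over all 11 libraries, the genes nearest to Rbl1 were Mcm4, a subunit of the replicative helicase, Mcm10, a replication initiation factor, and Pola1, the catalytic subunit of DNA polymerase alpha. Their root mean square differences of centred log2(FPKM + 1) were 0.203, 0.219 and 0.234, against 1.41 for the spread of Rbl1 itself. The genes nearest to E2f1 were Atf1, a CREB family factor, Nfatc3, a calcineurin-dependent factor, and Rbms2, an RNA-binding protein, at 0.164, 0.185 and 0.186 (spread of E2f1, 0.653). Those nearest to E2f5 were Srprb, a subunit of the signal recognition particle receptor, Ethe1, a mitochondrial sulfur dioxygenase, and Gtf2e2, a subunit of the general factor TFIIE, at 0.120, 0.134 and 0.134 (spread of E2f5, 0.435).

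The MuvB complex joins Rbl1 or Rbl2 with E2f4 in resting cells. A list of 11 genes held partners of E2F, MuvB subunits, Mybl2 and Foxm1, which join MuvB in cycling cells, E2f6 and Dyrk1a. Of these, 6 rose and 1 fell in NRAS tumors against normal brain, with a median log2 fold change of 0.82. In PDGFB tumors 6 rose and 2 fell, with a median of 1.27. Of all genes tested, 32% were called higher and 30.3% lower in NRAS tumors, and 29.3% and 29.2% in PDGFB tumors. Foxm1, the forkhead factor that MuvB recruits to mitotic genes, averaged 19.0 ± 7.88 FPKM in NRAS tumors, 34.6 ± 8.78 FPKM in PDGFB tumors and 0.527 ± 0.223 FPKM in normal brain (SD, n = 4, 4 and 3). Its log2 fold change against normal brain was 3.62 for NRAS tumors (adjusted p = 1.37e-05) and 4.52 for PDGFB tumors (adjusted p = 3.55e-06). Mybl2, which takes the place of the pocket proteins on MuvB in cycling cells, rose by 2.26 in NRAS tumors and 3.15 in PDGFB tumors. Foxm1 and Mybl2 lay below 1 FPKM in every normal brain, so both entered the test only through the tumors.

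Lin9, a MuvB core subunit, rose by 1.81 in NRAS tumors and 2.15 in PDGFB tumors, and Tfdp1, the dimerization partner of the E2Fs, by 1.33 in NRAS tumors and 2.14 in PDGFB tumors. Lin52, the subunit through which pocket proteins join MuvB, was the 1 that fell in NRAS tumors (-0.61, adjusted p = 0.00389), and it also fell in PDGFB tumors (-0.63, adjusted p = 0.00311) together with Lin37 (-0.44, adjusted p = 0.0391). The count of 2 that fell became 1 without PDGFB tumor 1, 2 or 3 or normal brain 1 or 3. E2f6, an E2F that represses without pocket proteins, was at 13.5 to 18.5 FPKM in NRAS tumors, 16.9 to 20.8 FPKM in PDGFB tumors and 13.7 to 18.02 FPKM in normal brain and was not called in any comparison. Between the models, Tfdp1 (-0.81, adjusted p = 0.00821), Foxm1 (-0.90, adjusted p = 0.0429) and Rbbp4 (-0.54, adjusted p = 0.0346), a histone-binding MuvB subunit, were lower in NRAS tumors than in PDGFB tumors. That count of 3 was 1 without NRAS tumor 2 or 3 or PDGFB tumor 2 or 3, and within titles 2038 to 2046. Of all genes tested, 12.2% were called lower in NRAS tumors than in PDGFB tumors.

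Of the 13 kinases, cyclins and inhibitors that act on the pocket proteins, 12 rose and 1 fell in NRAS tumors against normal brain (median log2 fold change 2.61), and 11 rose in PDGFB tumors (median 3.43). The 1 that fell was the inhibitor Cdkn2d (-0.42, adjusted p = 0.0422), a call lost without NRAS tumor 3 or 4 or any 1 of the normal brains. Cdk6 and Cdkn2d were not called in PDGFB tumors against normal brain. Of all genes tested, 32% were called higher and 30.3% lower in NRAS tumors, and 29.3% and 29.2% in PDGFB tumors. Cdkn2a, which encodes the CDK4 and CDK6 inhibitor p16 and the p53 regulator ARF, averaged 287 ± 134 FPKM in NRAS tumors, 242 ± 79.6 FPKM in PDGFB tumors and 0.172 ± 0.215 FPKM in normal brain (SD, n = 4, 4 and 3). Its log2 fold change was 7.83 in NRAS tumors and 7.66 in PDGFB tumors against normal brain, where normal brain 1 was listed at 0. The related inhibitor Cdkn2b rose by 5.32 in NRAS tumors and 5.36 in PDGFB tumors, and Ccnd1, the cyclin D1 gene whose kinase phosphorylates Rb1, by 4.60 in NRAS tumors and 5.52 in PDGFB tumors. Cdkn1a, the p21 inhibitor, rose by 4.36 in NRAS tumors, and Cdkn2c, another CDK4 and CDK6 inhibitor, by 4.34 in PDGFB tumors. Cdkn2a, Cdkn2b and Cdk6 lay below 1 FPKM in every normal brain. Cdkn2a and Cdkn2b entered the test only through the tumors, and Cdk6 only through NRAS tumors.

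Between the models, 12.2% of all genes tested were called lower and 14.3% higher in NRAS tumors than in PDGFB tumors. Of these 13 genes, 7 were lower and 1 was higher. The lower ones included the D-type cyclins Ccnd2 (-1.53, adjusted p = 0.0489) and Ccnd3 (-1.32, adjusted p = 0.000402) and the inhibitor Cdkn2c (-1.08, adjusted p = 0.00650). Cdk6, a kinase partner of the D cyclins, was the higher one, with 1.81 ± 0.879 FPKM in NRAS tumors and 0.323 ± 0.152 FPKM in PDGFB tumors (SD, n = 4 each; adjusted p = 0.00860). It reached 1 FPKM only in NRAS tumors 1, 3 and 4. Cdk6 thus entered the test only through the group in which it was called higher, so the call was favored beforehand. The count of 7 was 3 without NRAS tumor 3 or 4 or PDGFB tumor 1, and 2 without PDGFB tumor 3, and within titles 2038 to 2046 it was 4 of 12 tested.

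All 22 G1/S target genes of E2F rose in NRAS tumors against normal brain, with a median log2 fold change of 2.87, and 21 rose in PDGFB tumors, with a median of 3.43. The exception was Ccne1, the cyclin E1 gene (0.39, adjusted p = 0.0926). Over all genes tested, limma called 32% higher in NRAS tumors and 29.3% higher in PDGFB tumors, against normal brain. Cdc6, Cdt1, Orc1, Mcm10, Tyms, Tk1 and Uhrf1 lay below 1 FPKM in every normal brain. They entered the test only through the tumors and so had to differ. Mcm6, a subunit of the replicative helicase, averaged 55.5 ± 30.1 FPKM in NRAS tumors, 76.9 ± 25.1 FPKM in PDGFB tumors and 0.997 ± 0.191 FPKM in normal brain (SD, n = 4, 4 and 3). Its log2 fold change was 4.66 in NRAS tumors and 5.24 in PDGFB tumors against normal brain. Rrm2, the regulated subunit of ribonucleotide reductase, rose by 4.65 in NRAS tumors and 5.32 in PDGFB tumors, and Uhrf1, which maintains DNA methylation at replication forks, by 4.52 in NRAS tumors and 4.95 in PDGFB tumors. Within titles 1834 to 1838, 15 of these genes were tested and 14 were called higher in NRAS tumors. In NRAS tumors against PDGFB tumors, Ccna2 (-0.93), Rrm1 (-0.86) and Ccne2 (-0.82) were the 3 of 22 that were lower (adjusted p 0.0245 to 0.0472). With 12.2% of all genes tested called lower in that comparison, this count is near the background share. That count was 11 without NRAS tumor 1, 1 without NRAS tumor 2 or 4 or PDGFB tumor 1, and none at an adjusted p under 0.05 in limma without NRAS tumor 3 or PDGFB tumor 2 or 3 (3 to 7 at an unadjusted p). Within titles 2038 to 2046 it was 1.

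Among cell death genes known as E2F targets, Pmaip1, the NOXA gene, averaged 16.6 ± 6.80 FPKM in NRAS tumors, 6.38 ± 2.82 FPKM in PDGFB tumors and 2.79 ± 0.669 FPKM in normal brain (SD, n = 4, 4 and 3). Its log2 fold change against normal brain was 2.14 for NRAS tumors (limma adjusted p = 0.000463) and 0.90 for PDGFB tumors (adjusted p = 0.0416). The PDGFB call was lost without PDGFB tumor 2 or 4 or any 1 of the normal brains (adjusted p 0.0527 to 0.123), and with the number series as a covariate the value was -0.015. That call was also lost without the filter (limma adjusted p = 0.0608), with FPKM rescaled without small RNA genes (0.0620) and with the replicate block (0.0629). Pmaip1 was higher in NRAS tumors than in PDGFB tumors by 1.24 (adjusted p = 0.0155), a call lost without PDGFB tumor 3 (0.0503).

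Bcl2l11, the gene of the death activator BIM, averaged 7.02 ± 2.86 FPKM in NRAS tumors, 3.41 ± 0.431 FPKM in PDGFB tumors and 1.76 ± 0.0392 FPKM in normal brain (SD, n = 4, 4 and 3). It rose by 1.45 on the log2 scale in NRAS tumors against normal brain (limma adjusted p = 0.00132). In PDGFB tumors its log2 fold change of 0.67 was not called (adjusted p = 0.0609), and with the number series as a covariate it was -0.16. Bcl2l11 was higher in NRAS tumors than in PDGFB tumors by 0.78 (adjusted p = 0.0470), a call lost without any 1 of the tumors except NRAS tumor 2 (adjusted p 0.0692 to 0.129). The call was also lost with a pseudocount of 0.1 (limma adjusted p = 0.0513) and without the filter (0.0725). Quantile normalization (0.132) and the replicate block (0.0770) lost it as well. Within titles 2038 to 2046, and with the covariate, this difference was 1.19 and called (adjusted p = 0.0044 within these titles and 0.0048 with the covariate).

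Other cell types moved with the comparison of the models, in which E2f2 and E2f7 differed. Of the proliferation markers 4 of 10 (Mki67, Kif11, Ccnb1 and Aurkb) were lower in NRAS tumors than in PDGFB tumors, 9 of 10 without NRAS tumor 1 and 2 of 10 without NRAS tumor 4. The oligodendrocyte progenitor markers were lower for 4 of 4, with sums of 81.7 to 382 FPKM in NRAS tumors, 670.0 to 774 FPKM in PDGFB tumors and 46.4 to 67.8 FPKM in normal brain. Microglia and macrophage markers were higher for 6 of 6, with sums of 378 to 1142 FPKM in NRAS tumors, 99.8 to 269 FPKM in PDGFB tumors and 113 to 121 FPKM in normal brain. T and NK cell markers were higher for 6 of 6, with sums of 12.05 to 241 FPKM in NRAS tumors, 0.685 to 2.02 FPKM in PDGFB tumors and 0.963 to 1.38 FPKM in normal brain. All of these except Lck entered the test only through NRAS tumors, the group in which they were called higher. Astrocyte markers were higher for 2 of 5, Aldh1l1 (1.79, adjusted p = 0.0138) and Gja1 (1.82, adjusted p = 0.0097), with sums of 672 to 1301 FPKM in NRAS tumors, 147 to 657 FPKM in PDGFB tumors and 550 to 596 FPKM in normal brain. That count was 1 with the covariate, and within titles 2038 to 2046 limma called none and 2 had an unadjusted p under 0.05. In the main fit 1 of 4 endothelial markers was higher and 1 lower in NRAS tumors than in PDGFB tumors. Gzmb, a T and NK cell marker, was listed at 0 in PDGFB tumors 1, 3 and 4 and in all normal brains, and Cd3e, another, in all normal brains. The part of these cell types in the levels of the members was not tested.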

How the data were processed

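RNA was extracted from dissected brain tissue by column kit and made into Illumina libraries, per the labels' protocols. Expression was deposited by the authors as FPKM per gene in 1 table of the 11 libraries. The submitters' processing notes name the aligner TopHat2 2.0.13, the quantifier Cufflinks 2.2.1 and mm10 as the genome build. Settings, annotation and strand use are not stated. FPKM is scaled to the library total, and small RNA rows held 10.5% to 42.7% of the FPKM sum. Of 24347 rows, 27 with gene names turned into dates were left out.

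All 11 libraries entered 1 limma fit (limma 3.58.1, R 4.3.3, eBayes with trend) with a mean per group on log2(FPKM + 1), a pseudocount of 1, over the 14491 genes that reached 1 FPKM in 3 libraries or more. P-values are two-sided and were adjusted by Benjamini-Hochberg over all genes tested, with a threshold of 0.05. The fit was tested on simulated data. Shares and ratios were computed from FPKM with pandas 2.3.3 in Python 3.11.15. Depth per library is known only in relative terms, so no counting interval is given. Gene positions and overlaps came from GENCODE on GRCm38, the build of mm10.

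Groups came from the sample titles. All 10 members are named in every comparison. Of each pathway list members are counted by direction, and called members are named, at most 4 of largest absolute change per comparison. Lin52, Lin37, E2f6, Cdkn2d and Ccne1 were named beyond that rule, with their values known. The same holds for genes named because they entered the test only through tumors. Some of the cell death genes are not reported here, so no count over that list is given. For E2f1, E2f5 and Rbl1 the 3 genes of most similar pattern are named. The members and lists were chosen with earlier results of these data known. The alternatives were a pseudocount of 0.1, no filter, quantile normalization, median-of-ratios scaling, FPKM rescaled without small RNA genes, a replicate block, blocks of the titles that name a match, the title number series as a covariate or alone, and leaving out each library. Fits of 1 number series with the genes of the filter over all libraries were added after seeing the data.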

Additional observations from a re-analysis of the deposited data

Results flagged for a closer look

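E2f2 and E2f7 are given here because their effect differed between the tumor models by the test of that difference. The log2 fold change in NRAS tumors against PDGFB tumors was -0.67 for E2f2 and -1.06 for E2f7. E2f2 was lower in 4 of 4 NRAS tumors than in every PDGFB tumor, whereas NRAS tumor 1 lay within the PDGFB range for E2f7. The search for a library far from the others of its group covered 20 sets, each of the 10 members in each tumor model, and found none, where chance gives about 1 in 20.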

How the results depend on the processing

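For NRAS tumors against normal brain, the 7 members called were 3 of 6 tested within titles 1834 to 1838, where E2f2, E2f7, E2f8 and Rbl1 dropped out because fewer libraries reached 1 FPKM, and 7 with the genes of the filter over all libraries; leaving out a library gave 7 to 8. For PDGFB tumors against normal brain, the 9 called became 5 with the number series as a covariate, and 7 to 9 without 1 library; all PDGFB tumors carry one series and all normal brains the other, so series and group cannot be told apart here except through the NRAS tumors. Over all genes, this covariate left 4768 calls against 8470, and titles 1834 to 1838 alone left 5817 against 9023 for NRAS tumors against normal brain.

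For NRAS tumors against PDGFB tumors, the 2 called became 1 without the filter, 1 with the replicate block, 0 with the covariate and 0 within titles 2038 to 2046, with either set of genes; limma gave 2 members an unadjusted p under 0.05 in each of these 3 fits. Leaving out a library gave 1 to 3, and 1 without NRAS tumor 3 or 4 or PDGFB tumor 1, 2 or 3. The cause was not tested.

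Among the members, directions turned only for differences that were not called. Rbl2 in PDGFB tumors against normal brain was -0.063 with FPKM rescaled without small RNA genes, and -0.065 (without PDGFB tumor 2) to 0.22 over the fits without 1 library. In NRAS tumors against PDGFB tumors, E2f5 was -0.034 and Rb1 0.018 with the covariate or within titles 2038 to 2046. Without 1 library, E2f5 was -0.043 (without NRAS tumor 1) to 0.17, Rb1 -0.21 to 0.11 (without PDGFB tumor 2), E2f8 -0.052 (without NRAS tumor 4) to 0.67, and Rbl1 -0.50 to 0.045 (without NRAS tumor 2).

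The replicate numbers only name samples: deviations of same-numbered samples correlated at -0.50 to 0.12 between tumor models, -0.14 to 0.05 for NRAS tumors with normal brain and -0.36 to 0.16 for PDGFB tumors with normal brain. The replicate block gave 8, 9 and 1 members called, and over all genes 8206, 7835 and 3249 calls, against 9023, 8470 and 3852. Rescaling without small RNA genes moved the median of all genes to -0.12 in NRAS tumors against normal brain, and quantile normalization to -0.11 in NRAS tumors against PDGFB tumors. Levels under 1 FPKM rest on few reads, which limits the ratios of E2f7 and E2f8 to normal brain.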
